A study of Mus musculus with 21 samples.

Results

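The urokinase system was described through 4 genes on a mouse expression array: Plau, the urokinase-type plasminogen activator, Plaur, its cell-surface receptor, Plat, the tissue-type plasminogen activator, and Serpinb2, an inhibitor of both activators that is also called plasminogen activator inhibitor type 2. The 4 genes are among 12393 genes measured, and 5 probe sets with a single gene symbol belong to them. Where a gene had more than 1 such probe set, the one with the highest mean over all 21 arrays stood for it.

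The cells were RAW 264.7, a mouse macrophage-like line established from a virus-induced tumour. They were exposed for 2 h, in medium without serum, to amorphous silica particles of 1 of 2 sizes. The 10 nm particles were given at 5 µg/ml (low dose), 20 µg/ml (mid dose) or 50 µg/ml (high dose), and the 500 nm particles at 250 µg/ml (low), 500 µg/ml (mid) or 1000 µg/ml (high). Untreated cells were the control, and whether they too were moved to medium without serum is not given in the sources used here, so that the medium and the particles cannot be told apart in comparisons with untreated cells. Each of the 7 groups had 3 arrays. All groups are of 1 cell line, and nothing in the labels ties the 3 arrays of a group to independent cultures. The p-values therefore rest on array-to-array spread that may be technical. The doses of the 2 sizes differ in mass; dose divided by diameter gives a nominal surface area, which relative to the low dose was 1, 4 and 10 for the 10 nm particles and 1, 2 and 4 for the 500 nm particles.

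Urokinase is a secreted serine protease that cuts the inactive proenzyme plasminogen into plasmin, a broad protease of fibrin and matrix proteins. Its receptor, held in the outer membrane by a glycolipid anchor, keeps this activity at the cell surface and works with integrins in adhesion and migration, while serpins such as Serpinb2 end it. Macrophages are a known source of urokinase and of its receptor, and both genes are known to respond to inflammatory stimuli and to activators of AP-1, a transcription factor made of Fos and Jun family proteins.

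Levels are given as log2 RMA values, in which 1 unit is a 2-fold difference, as the mean ± SD of 3 arrays. A difference was called when limma's moderated test, fitted on all 21 arrays, gave a two-sided p under 0.05 after Benjamini-Hochberg adjustment over the 12393 genes. A level on this scale includes the binding strength of each probe set, so levels were compared between groups and not between genes. The arrays of a group correlated at 0.983 to 0.998, and no array was a copy of another. All 10 macrophage markers of the list used (among them Csf1r, Cd68 and Adgre1) were measured, with a mean of 10.88 to 11.26 in every array. Itgam, the lowest of them, averaged 6.02 over the arrays (5.14 to 6.67), under the median level of all genes, 6.66. An index of RNA integrity, the 3′ minus 5′ signal of the Gapdh and actin control probe sets, was highest in untreated replicate 3 (1.147) and in replicate 3 of the 10 nm high dose (0.952).

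Plau was higher after every exposure, from 2.18-fold at the 10 nm high dose to 5.17-fold at the 500 nm high dose. It was the only one of the 4 genes called at all 6 doses. Untreated cells gave 7.61, 8.05 and 7.61 in replicates 1, 2 and 3. The 10 nm particles gave 9.29, 9.42 and 9.30 at the low dose, 9.51, 9.66 and 9.63 at the mid dose and 8.78, 8.92 and 8.93 at the high dose. The 500 nm particles gave 8.97, 9.07 and 9.11 at the low dose, 9.78, 10.01 and 9.70 at the mid dose and 9.97, 10.20 and 10.21 at the high dose. All 18 arrays of exposed cells lay above all 3 untreated arrays, and the lowest exposed array was replicate 1 of the 10 nm high dose.

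**Figure D1:**
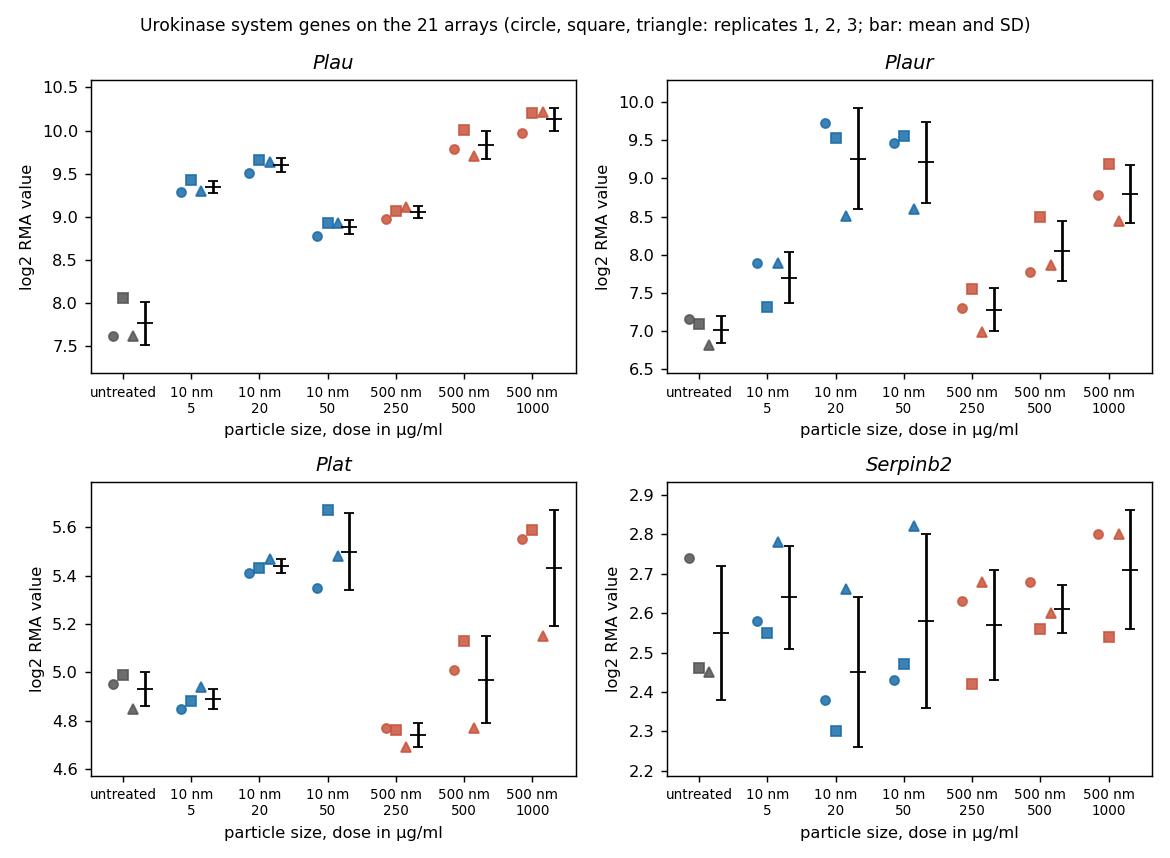
The log2 RMA value of each gene on each of the 21 arrays, by particle size and dose in µg/ml; circle, square and triangle are replicates 1, 2 and 3, and the bars show mean and SD of 3 arrays. Plau lies above untreated cells at every dose, Plaur and Plat were called above them at the 10 nm mid, 10 nm high and 500 nm high doses, and Serpinb2 stays between 2.30 and 2.82 on all arrays (each panel has its own vertical range).

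For the 10 nm particles, the Plau mean rose from 7.76 ± 0.25 in untreated cells to 9.34 ± 0.07, 9.60 ± 0.08 and 8.88 ± 0.08 at the low, mid and high dose. These are log2 differences of 1.58, 1.84 and 1.12 (each with an SE of 0.12), or 2.99-fold, 3.59-fold and 2.18-fold, with limma adjusted p-values of 1.09e-07, 1.73e-09 and 1.37e-06. For the 500 nm particles the means were 9.05 ± 0.07, 9.83 ± 0.16 and 10.13 ± 0.13, which are differences of 1.29, 2.07 and 2.37, or 2.45-fold, 4.21-fold and 5.17-fold, with adjusted p-values of 2.74e-06, 7.92e-10 and 4.26e-11. At the low doses Plau ranked 8th (10 nm) and 11th (500 nm) of 12393 genes by the size of its rise, where few genes were called at all. A second Plau probe set, which was not the one chosen, gave 1.52, 1.72 and 1.17 for the 10 nm doses and 1.17, 1.99 and 2.47 for the 500 nm doses, and was called at all 6 as well. Its adjusted p-values, here and below, come from a separate limma fit of 20380 single probe sets and are adjusted over those.

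Read against all genes, 1 of the 4 genes (Plau) was called higher at the 10 nm low dose, where 0.767% of all genes were called in either direction. At the 10 nm mid dose 3 of 4 were called higher (10.6% of all genes called), and at the 10 nm high dose again 3 of 4 (20.2%). The 500 nm particles gave 1 of 4 at the low dose (0.428% of all genes), 1 of 4 at the mid dose (2.77%) and 3 of 4 at the high dose (15.3%). The same genes, Plau, Plaur and Plat, made up each count of 3, and no member was called lower than untreated at any dose. These 6 comparisons share the untreated arrays, and the 4 genes were chosen with earlier results of these data known. The counts beside the shares of all genes are therefore a description and no test.

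Within the 10 nm series the Plau level did not follow the dose. The low and mid doses differed by 0.26 (95% interval 0.01 to 0.51, adjusted p = 0.294). From the mid to the high dose the mean was lower by 0.72 (interval of the difference -0.97 to -0.47), all 3 high-dose arrays lay below all 3 mid-dose arrays, and of all genes Plau had the smallest unadjusted p (8.37e-06). Its limma adjusted p was 0.104, so the difference was not called; 0 of 12393 genes were (percent called 0), and 543 genes had an unadjusted p under 0.05. The call depended on the setting. The difference was called at an adjusted p of 0.00451 with the replicate number as a block and 0.0434 when genes under the median level were left out. It was also called at 0.00734 with array weights (-0.69), and at 0.0165 or 0.043 without untreated replicate 2 or 3. The second probe set gave -0.55 (SE 0.17, adjusted p = 0.898) in the fit of single probe sets, where the chosen one had an adjusted p of 0.208. Of the 4 genes, Plau alone had an unadjusted p under 0.05 at this step.

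The same gene was lower at the 10 nm high dose than at the low dose by 0.46 (SE 0.12, adjusted p = 0.016), with no overlap between the arrays. For this pair 11.7% of all genes were called, with Plaur and Plat higher and Plau lower. The Plau call was lost without replicate 2 of the low dose (-0.42, 0.076) or replicate 1 of the high dose (-0.41, 0.0515), with quantile normalization (-0.37, 0.0617), with the mean of both probe sets (-0.40, 0.0542) and on the second probe set (-0.35, 0.213).

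Within the 500 nm series the Plau mean was higher at each higher dose. It rose by 0.78 from the low to the mid dose (adjusted p = 0.00153), where 0.436% of all genes were called and Plau was the only one of the 4. From the mid to the high dose the difference was 0.30 (interval 0.05 to 0.54, adjusted p = 0.309), with overlapping arrays. The rise from low to high dose was 1.08 (2.11-fold, adjusted p = 5.53e-06), for a pair in which 8.2% of all genes were called. The mid-to-high step differed between the sizes: the step with 10 nm particles minus that with 500 nm particles was -1.01 ± 0.17 (SE; limma adjusted p = 0.00745), a contrast in which 0.299% of all genes were called and Plau was the only one of the 4. The 2 steps span different nominal areas, 4 to 10 for 10 nm and 2 to 4 for 500 nm particles, so size and area cannot be told apart. The contrast was chosen after these values had been seen. It stayed called whichever single array was left out, and it was -1.03 with an adjusted p of 0.0878 on the second probe set. The low-to-mid step, over areas 1 to 4 and 1 to 2, differed by -0.52 (adjusted p = 0.427), and no member was called there (0.315% of all genes).

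**Figure D2:**
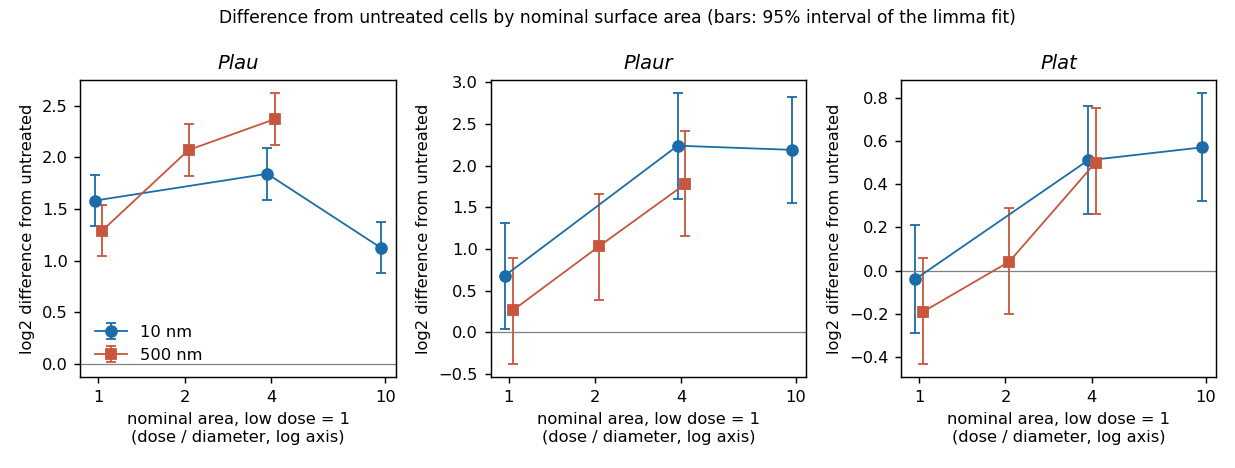
Log2 difference from untreated cells (vertical axis, bars are 95% intervals of the limma fit) against nominal surface area, dose divided by diameter relative to the low dose (log axis), for Plau, Plaur and Plat. Plau with 10 nm particles is 1.84 at area 4 and 1.12 at area 10, a step with an adjusted p of 0.104, beside 2.24 and 2.19 for Plaur and 0.51 and 0.57 for Plat; at area 4 the 2 sizes differ for Plau and overlap for Plaur and Plat.

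In the order of its levels, Plau was lowest in untreated cells, followed by 10 nm high, 500 nm low, 10 nm low, 10 nm mid, 500 nm mid and 500 nm high dose. Of neighbours in this order, untreated cells and the 10 nm high dose differed (1.12), and no other neighbouring pair was called.

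Plaur rose at the upper doses of both sizes. In untreated cells it gave 7.16, 7.09 and 6.82. After 10 nm particles the values were 7.89, 7.32 and 7.89 at the low dose, 9.73, 9.53 and 8.51 at the mid dose and 9.47, 9.56 and 8.60 at the high dose. After 500 nm particles they were 7.30, 7.55 and 6.99, then 7.78, 8.50 and 7.87, then 8.78, 9.19 and 8.44 from the low to the high dose. Replicate 3 was the lowest array of its group in untreated cells, at the 10 nm mid and high doses and at the 500 nm low and high doses; the arrays of the 500 nm low dose overlapped untreated cells, and those of the 5 other doses did not.

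The Plaur mean rose from 7.02 ± 0.18 in untreated cells to 9.26 ± 0.66 at the 10 nm mid dose and 9.21 ± 0.53 at the high dose. These are log2 differences of 2.24 and 2.19 (SE 0.30), or 4.71-fold and 4.55-fold, with limma adjusted p-values of 3.71e-05 and 3.77e-05. At the 500 nm high dose it rose to 8.80 ± 0.38, by 1.78 or 3.44-fold (adjusted p = 0.000357). These 3 calls held in each of the 30 alternative settings tried. Without replicate 3 of the 10 nm high dose, an array with a high 3′ minus 5′ index, the difference at that dose was 2.49, and without untreated replicate 3, the array with the highest index, it was 2.08; for Plau the same fits gave 1.10 and 1.05, all called. At the 10 nm low dose the difference was 0.68 (interval 0.04 to 1.31, adjusted p = 0.66), and at the 500 nm low dose 0.26 (interval -0.38 to 0.89, adjusted p = 0.999).

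The 500 nm mid dose lay near the threshold for Plaur. Its mean was 8.05 ± 0.39, a difference of 1.03 (interval 0.39 to 1.66) with an adjusted p of 0.0848. It was called after quantile normalization (1.08, 0.036), with array weights (0.80, 0.0136) and with the replicate number as a block (1.03, 0.00894). It was also called without replicate 3 of the 10 nm mid dose (0.0335) or of the 10 nm high dose (0.0434). Those arrays enter this comparison through the shared estimate of the spread.

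Between doses, Plaur rose by 1.56 from the 10 nm low to the mid dose (2.94-fold, adjusted p = 0.00355), where 2 of the 4 genes were called higher, Plaur and Plat, against 4.7% of all genes. The mid and high doses differed by -0.049 with an interval of -0.68 to 0.59. In the 500 nm series the steps were 0.77 (interval 0.13 to 1.40, adjusted p = 1) and 0.75 (interval 0.12 to 1.39, adjusted p = 0.31), neither called, and the rise from low to high dose was 1.52 (adjusted p = 0.00273). The order from lowest to highest was untreated, 500 nm low, 10 nm low, 500 nm mid, 500 nm high, 10 nm high and 10 nm mid dose, and no pair of neighbours in it was called.

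Whether any promoter motif has a part in the rise of Plaur was not tested. Promoter windows were matched for Serpinb2 and Plaur and not for Plau or Plat, and the window of Plaur is printed here. It is the RefSeq sequence (GRCm38.p6) from 250 bases before to 50 bases after the annotated start, chr7:24462233-24462532 on the plus strand; the capitals mark matches to the AP-1 and NF-kB motifs searched.
Plaur: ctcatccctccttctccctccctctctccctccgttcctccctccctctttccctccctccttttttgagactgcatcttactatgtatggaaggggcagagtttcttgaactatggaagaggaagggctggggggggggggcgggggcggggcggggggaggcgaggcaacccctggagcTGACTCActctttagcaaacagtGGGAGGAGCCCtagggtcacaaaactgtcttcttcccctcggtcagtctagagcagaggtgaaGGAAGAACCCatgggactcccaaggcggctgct
The AP-1 match, TGACTCA, begins 69 bases before the start, and 7.81% of all 32851 promoter windows of this length hold a match to the motif searched, TGANTCA, on either strand. NF-kB was searched on both strands as GGG, then 5 bases of any kind, then CC, and matched at 3 positions, of which those 46 and 45 bases before the start overlap and the third lies 17 bases after it; 50.8% of windows hold such a match. Neither the cyclic AMP response element TGACGTCA (1.79% of windows) nor the TATA box TATAAA (13.6%) was found in these letters. A Serpinb2 window at chr1:107511173-107511472 (plus strand) holds an AP-1 match, TGAATCA, and a TATAAA 29 bases before the start. In a second Serpinb2 window, chr1:107511260-107511559, the same TATAAA lies 116 bases and the same AP-1 match 181 bases before the start. A match is a description of the letters and not of binding.

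Plat rose by 1.42-fold to 1.49-fold at the 3 doses where Plaur was called. Untreated cells gave 4.95, 4.99 and 4.85. The 10 nm particles gave 4.85, 4.88 and 4.94 at the low dose, 5.41, 5.43 and 5.47 at the mid dose and 5.35, 5.67 and 5.48 at the high dose. The 500 nm particles gave 4.77, 4.76 and 4.69, then 5.01, 5.13 and 4.77, then 5.55, 5.59 and 5.15. Every array of the 10 nm mid and high doses and of the 500 nm high dose lay above every untreated array, and every array of the 500 nm low dose lay below them.

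The Plat mean was 4.93 ± 0.07 in untreated cells, 5.44 ± 0.03 at the 10 nm mid dose, 5.50 ± 0.16 at the 10 nm high dose and 5.43 ± 0.24 at the 500 nm high dose. The log2 differences were 0.51, 0.57 and 0.50 (SE 0.12), or 1.42-fold, 1.49-fold and 1.42-fold, with limma adjusted p-values of 0.00637, 0.00186 and 0.00558. No single array decided these 3 calls. After quantile normalization the 10 nm mid dose (0.44, adjusted p = 0.0543) and the 500 nm high dose (0.43, 0.0505) were no longer called.

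At the other doses Plat differed from untreated cells by -0.039 (10 nm low, interval -0.29 to 0.21), -0.19 (500 nm low, interval -0.43 to 0.06) and 0.042 (500 nm mid, interval -0.20 to 0.29), none of them called. It rose by 0.55 from the 10 nm low to the mid dose (adjusted p = 0.0077) and by 0.46 from the 500 nm mid to the high dose (adjusted p = 0.0472, the only member called there, against 2.03% of all genes). The latter call was lost in 15 of 21 fits that each left out 1 array (adjusted p 0.0554 to 0.26): every one of the 10 nm low, 10 nm mid and 500 nm low doses, replicates 1 and 2 of untreated cells and of the 500 nm high dose, and replicates 1 and 3 of the 500 nm mid dose. The difference itself was 0.36 without replicate 3 of the 500 nm mid dose and 0.38 without replicate 2 of the 500 nm high dose. The 500 nm low dose had the lowest mean, 4.74 ± 0.05, then the 10 nm low dose, untreated cells, the 500 nm mid and high doses, and the 10 nm mid and high doses. Only the step from the 500 nm mid to the 500 nm high dose was called between neighbours in that order.

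Serpinb2 was not called between any of the 21 pairs of groups. Its values were 2.74, 2.46 and 2.45 in untreated cells and lay between 2.30 (10 nm mid dose, replicate 2) and 2.82 (10 nm high dose, replicate 3) over all 21 arrays, with overlap between untreated cells and every dose. The differences from untreated cells ran from -0.11 to 0.16 (SE 0.13), and the widest intervals reached -0.38 (10 nm mid dose) and 0.43 (500 nm high dose). Between 0.022% and 2.64% of the probe sets on the same array had a lower value, and the lowest value in the whole table was 2.13, so this probe set read near the bottom of the range on every array. A small rise of a transcript read at this floor could not be detected. Plat stood at 30.8% to 43.6% on this measure, also below the median of all genes by its mean, and Plau and Plaur lay above it.

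The 2 particle sizes were compared at equal nominal surface area and at matched dose rank. At area 1 (10 nm at 5 µg/ml against 500 nm at 250 µg/ml) no member was called, and 0.0888% of all genes were. Only Plau had an unadjusted p under 0.05 there, with a difference of 0.29 (interval 0.04 to 0.54, adjusted p = 1). Plaur differed by 0.42 (interval -0.22 to 1.05), Plat by 0.15 (interval -0.10 to 0.40) and Serpinb2 by 0.065 (interval -0.21 to 0.34).

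At area 4 (10 nm at 20 µg/ml against 500 nm at 1000 µg/ml) Plau was lower with the 10 nm particles, by 0.53 (SE 0.12, 1.44-fold, limma adjusted p = 0.0172). It was the only one of the 4 called, against 2.85% of all genes, and its arrays did not overlap between the sizes. The call was lost without replicate 1 (-0.48, adjusted p = 0.0875) or 3 (-0.54, 0.0508) of the 10 nm mid dose and without replicate 2 (-0.49, 0.071) or 3 (-0.49, 0.0787) of the 500 nm high dose, while the second probe set gave -0.75 (0.0182). Plaur differed by 0.45 with an interval of -0.18 to 1.09, and Plat by 0.0062 with an interval of -0.24 to 0.25.

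At the mid doses, 20 against 500 µg/ml and nominal areas 4 and 2, Plaur and Plat were called and Plau was not. Plaur was higher with the 10 nm particles by 1.21 (2.31-fold, SE 0.30, adjusted p = 0.0362) and Plat by 0.47 (1.38-fold, SE 0.12, adjusted p = 0.0367), and 2.56% of all genes were called. Plau differed by -0.23 (interval -0.48 to 0.02, adjusted p = 0.58). The Plaur call was lost without replicate 1 (0.97, adjusted p = 0.241) or 2 (1.07, 0.168) of the 10 nm mid dose or replicate 1 (1.08, 0.185) or 3 (1.12, 0.159) of the 500 nm mid dose. The Plat call was lost after quantile normalization (0.45, 0.12) and in 8 of 21 fits that each left out 1 array (adjusted p 0.0501 to 0.231), namely all 3 of the 10 nm mid dose, replicates 1 and 3 of the 500 nm mid dose, replicate 1 of the 10 nm low dose and replicates 2 and 3 of the 500 nm low dose.

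At the high doses, 50 against 1000 µg/ml and nominal areas 10 and 4, Plau was 2.37-fold lower with the 10 nm particles. The log2 difference was -1.25 (SE 0.12, adjusted p = 1.76e-06), the arrays of the sizes did not overlap, and the call held in all 31 alternative settings. Among all genes 7.52% were called in this comparison. Plaur differed by 0.41 (interval -0.23 to 1.04, adjusted p = 0.508) and Plat by 0.066 (interval -0.18 to 0.31, adjusted p = 0.812), neither called.

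The other pairs across the 2 sizes carry differing areas and doses, and are given for the order of the levels. With 500 nm particles at the high dose (area 4) Plau, Plaur and Plat were higher than with 10 nm particles at the low dose (area 1), by 0.79, 1.10 and 0.54, 3 of 4 genes against 8.69% of all genes. The same 3 genes were lower with 500 nm particles at the low dose (area 1) than with 10 nm particles at the mid dose (area 4), by 1.46-fold, 3.93-fold and 1.62-fold, against 4.96% of all genes; the second Plau probe set was not called there (-0.55, adjusted p = 0.0835). With 500 nm particles at the mid dose (area 2) Plau was 1.93-fold higher than with 10 nm particles at the high dose (area 10), while Plaur was 2.23-fold and Plat 1.44-fold lower, against 7.96% of all genes. The call of Plaur in the first of these pairs was lost without replicate 2 of the 10 nm low dose (0.91, adjusted p = 0.148) or replicate 1 (1.12, 0.068) or 2 (0.91, 0.121) of the 500 nm high dose. In the last pair the Plaur call was lost without replicate 1 or 2 of the 10 nm high dose or replicate 1 or 3 of the 500 nm mid dose (adjusted p 0.0695 to 0.102), and the Plat call without replicate 2 of the 10 nm high dose (0.0514) or replicate 3 of the 500 nm mid dose (0.0544).

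Genes whose 7 group means followed those of Plau or Plaur most closely were listed from the 479 genes whose group means spanned at least 1 log2 unit. The likeness is Pearson's r over 7 group means, which share the same arrays, and it is given as a description. Plau spanned 2.37 units, and closest to it were Rab20 (r = 0.963), a small GTPase of vesicle traffic, Hsd17b7 (0.949), an enzyme of cholesterol synthesis, and Trib3 (0.925), a pseudokinase induced in the integrated stress response. Rab20 was higher than untreated cells by 0.84, 1.45 and 0.75 at the 10 nm doses and by 0.91, 1.49 and 2.04 at the 500 nm doses, of which the 10 nm mid and the 500 nm mid and high doses were called. Trib3 was called higher at all 6 doses, by 0.47 (10 nm high) to 1.80 (500 nm high), and like Plau it stood lower at the 10 nm high dose than at the mid dose (0.47 against 0.88), a difference that was not examined on its own.

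Plaur spanned 2.24 units. Closest to it were Fosl1 (r = 0.999), a Fos family subunit of AP-1, Jund (0.996), a Jun family subunit of AP-1, and Ier3 (0.996), an immediate early gene linked to cell survival. Fosl1 stood 0.77, 2.34 and 2.23 above untreated cells at the 10 nm low, mid and high dose and 0.27, 1.06 and 1.84 above them at the 500 nm doses, beside 0.68, 2.24, 2.19, 0.26, 1.03 and 1.78 for Plaur. Fosl1 was called at 5 of the 6 doses, all but the 500 nm low dose. Ier3 was called at the same 5, with 2.82 at the 10 nm mid and 2.77 at the 10 nm high dose, and Jund at 3, with 1.09, 1.14 and 0.92 at the 10 nm mid, 10 nm high and 500 nm high dose. Plat, with a span of 0.76, and Serpinb2, with 0.26, lay under the 1-unit span and were not matched.

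**Figure D3:**
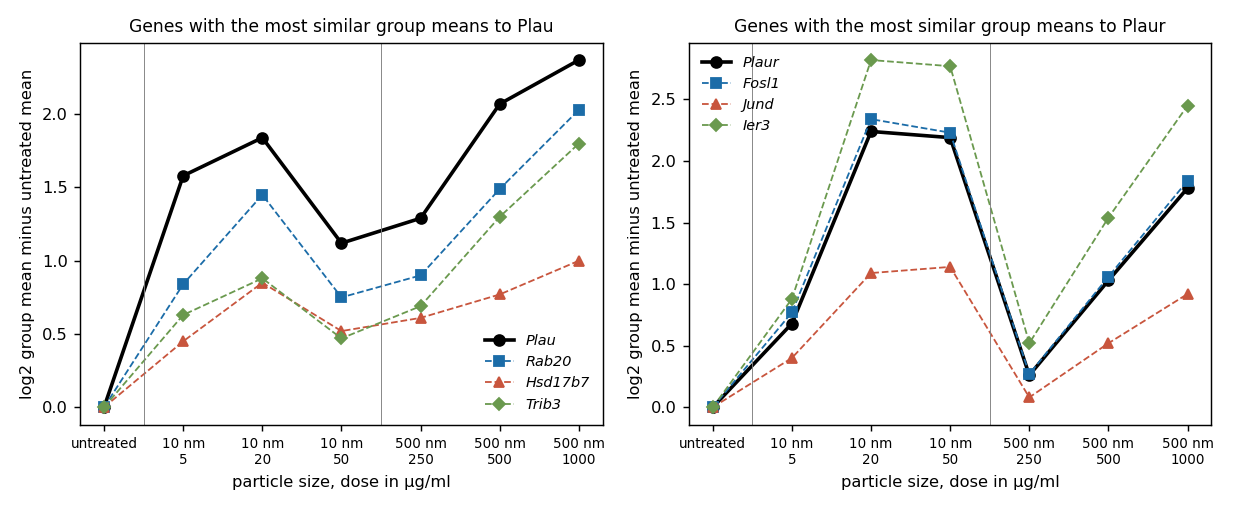
Group mean minus untreated mean (log2, vertical axis) in each of the 7 groups for Plau (left, black) and Plaur (right, black) with the 3 genes of highest Pearson r to each. The Plau panel dips at the 10 nm high dose (1.12 for Plau, 0.75 for Rab20, 0.47 for Trib3), whereas in the Plaur panel the 10 nm mid and high doses are level (2.24 and 2.19 for Plaur, 2.34 and 2.23 for Fosl1).

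Other genes of the plasmin system were taken from 6 lists, of which 76 of 91 genes were measured. None was called at the low dose of either size, where 5 (10 nm) and 3 (500 nm) of the 76 had an unadjusted p under 0.05. At the 10 nm mid and high doses 8 and 12 rose and 1 fell at each, at the 500 nm mid dose 1 rose, and at the 500 nm high dose 7 rose and 3 fell. The share called, 11.8%, 17.1% and 13.2% of the 76 at the 10 nm mid, 10 nm high and 500 nm high dose, was near that of all genes (10.6%, 20.2% and 15.3%). The median difference of the 76 genes was 0.24 at the 10 nm high dose and 0.18 at the 500 nm high dose, beside 0.036 and 0.073 over all genes. The counts moved with the setting, from 3 to 25 genes higher at the 10 nm high dose and from 1 to 11 at the 500 nm high dose, and the lists were chosen with earlier results known. Calls of single list genes were checked in the alternative settings only at the high doses, and not for genes named after their values were seen. Endothelial, osteoclast and fibroblast marker lists, with low means on all arrays, also stood slightly higher at both high doses. The mean of the 4 endothelial markers was 3.97 to 4.11 in untreated cells and 4.33 to 4.73 at the 10 nm high dose. That of the 4 osteoclast markers was 4.68 to 4.90 and 5.11 to 5.43, and that of the 5 fibroblast markers 4.02 to 4.23 and 4.36 to 4.74. The epithelial list stood higher at the 500 nm high dose only, and the T cell, B cell and neutrophil lists met or overlapped the untreated range. The SD within an array averaged 2.64 in untreated cells, 2.55 at the 10 nm high and 2.58 at the 500 nm high dose. Whether such a lift of dim probe sets has a part in these counts, or in the Plat rise, was not tested.

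Plasminogen and the fluid-phase inhibitors showed no called change. Of the 9 measured of 12, limma called 0 at any dose, and at most 2 had an unadjusted p under 0.05 (10 nm high dose). Serpinf2, the main plasmin inhibitor of plasma, had the smallest unadjusted p at the high doses (0.0162), with a difference of 0.37 at the 500 nm high dose (adjusted p = 0.0832).

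Receptors and uptake genes were called in both directions, 17.6% of them at each of the 10 nm mid, 10 nm high and 500 nm high doses, against 10.6%, 20.2% and 15.3% of all genes. Of the 17 measured of 19, 3 rose at the 10 nm mid and the 10 nm high dose: Anxa2, a plasminogen receptor subunit (11.23 ± 0.27 in untreated cells, 11.95 ± 0.20 and 11.97 ± 0.23 after exposure, differences 0.72 and 0.74), Igf2r, which binds Plaur and plasminogen (0.64 and 0.83), and Itga5, the alpha chain of the fibronectin receptor (0.81 and 0.54). At the 500 nm high dose Itga5 rose by 1.11 (2.16-fold, adjusted p = 0.000166), and Lrp1 and Itgav fell, named here after their values were seen. Lrp1, the endocytic receptor that clears urokinase bound to inhibitor and receptor, went from 8.52 ± 0.09 to 7.79 ± 0.08, a difference of -0.73 (adjusted p = 0.000286). Itgav, the alpha chain of vitronectin-binding integrins, differed by -0.47 (adjusted p = 0.0194). At the 10 nm high dose Lrp1 and Itgav stood at 0.16 and 0.02 above untreated cells, not called, and the difference between the sizes was not tested for these genes. Itga5 at the 10 nm high dose was called at an adjusted p of 0.0363 and lost with the mean of its probe sets (0.29, 0.186), without untreated replicate 1 (0.55, 0.0742) or 3 (0.44, 0.106), and without replicate 1 (0.41, 0.115) or 2 (0.51, 0.0927) of that dose.

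Proteases, growth factors and tissue inhibitors were called no more often than all genes at these doses (10.5%, 15.8% and 10.5%, against 10.6%, 20.2% and 15.3%). Of 19 measured, 2 rose at the 10 nm mid dose: Mmp12, the macrophage elastase (0.40), and Timp1, an inhibitor of these proteases (0.57), which was named after its values were seen. At the 10 nm high dose 3 rose, Mmp10 (0.49, adjusted p = 0.0286), Mmp12 (0.43, 0.00726) and Mmp2 (0.67, 0.0398), with overlapping arrays for Mmp2. At the 500 nm high dose Mmp10 (0.45, 0.0469) and Mmp12 (0.36, 0.0265) rose, with overlapping arrays for Mmp12, whose level in untreated cells (2.85 ± 0.08) was near the bottom of the table. After quantile normalization none of these 5 high-dose calls held, Mmp12 at the 10 nm high dose among them (0.32, 0.0553), and apart from that one they were also lost without single arrays, Mmp10 at the 500 nm high dose in the most fits. Mmp2 was 0.34 (0.102) as the mean of its probe sets, and Mmp12 at the 500 nm high dose 0.21 (0.102) with array weights; without replicate 3 of the dose concerned, Mmp10 was 0.32 (0.169) and 0.32 (0.229), Mmp2 0.36 (0.249) and Mmp12 at the 500 nm high dose 0.29 (0.135).

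Cell-surface coagulation genes held the largest changes of the lists. Of 12 measured, 25%, 33.3% and 25% were called at the 10 nm mid, 10 nm high and 500 nm high doses. Of all genes, 10.6%, 20.2% and 15.3% were called at these doses. At the 500 nm mid dose 8.33% of the list was called, against 2.77% of all genes. Procr, the endothelial protein C receptor, rose from 4.87 ± 0.14 in untreated cells to 6.16 ± 0.26 and 6.21 ± 0.06 at the 10 nm mid and high doses (1.28 and 1.34) and to 5.89 ± 0.15 and 6.99 ± 0.11 at the 500 nm mid and high doses (1.02 and 2.11, the latter 4.33-fold with an adjusted p of 9.75e-10). F3, tissue factor, the starter of coagulation, read near the bottom of the table in untreated cells (2.96 ± 0.22), so no fold is given, and rose by 1.34 and 1.59 at the 10 nm mid and high doses (adjusted p = 2.71e-05 and 2.85e-06) and by 0.69 at the 500 nm high dose (adjusted p = 0.0116). The last of these was lost without untreated replicate 2 (0.56, 0.0671) and after quantile normalization (0.57, 0.0833). Pros1, protein S, a cofactor of activated protein C, fell at the 10 nm mid, 10 nm high and 500 nm high doses. The falls were 0.64, 0.71 and 1.18 on the log2 scale (adjusted p = 0.0473, 0.0172 and 0.000323). At the 10 nm high dose the Pros1 call was lost without untreated replicate 2 (-0.66, 0.0616) or replicate 3 of that dose (-0.52, 0.102). F7, coagulation factor VII, which binds tissue factor, rose by 0.57 at the 10 nm high dose (adjusted p = 0.0303) and was named after its values were seen. Neither this call nor those at the mid doses were checked in the alternative settings.

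Among the relatives of the members, Serpinb9b, a clade B serpin like Serpinb2, was the only one of 10 measured in its list to be called. That is 10% of the list at the 10 nm mid, 10 nm high and 500 nm high doses, against 10.6%, 20.2% and 15.3% of all genes. Serpinb9b went from 5.11 ± 0.02 in untreated cells to 5.95 ± 0.03 and 5.83 ± 0.26 at the 10 nm mid and high doses (0.83 and 0.72) and to 5.54 ± 0.22 at the 500 nm high dose (0.43). The last call was lost without untreated replicate 1 (0.0559) or 2 (0.0668) and without replicate 3 of that dose (0.30, 0.15). Of 9 measured genes of the Ly6 and Plaur family, which share a fold with the domains of Plaur, Ly6g6c (0.44) and Slurp1 (0.53) rose at the 10 nm high dose and Psca (0.38) at the 500 nm high dose, with adjusted p-values of 0.0221, 0.0237 and 0.0347. The share of this family called was 22.2% and 11.1% at these doses, against 20.2% and 15.3% of all genes. All 3 calls were lost in several fits that left out 1 array, and without replicate 3 of the dose concerned the differences were 0.37 (0.0914), 0.40 (0.125) and 0.38 (0.0854).

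**Figure D4:**
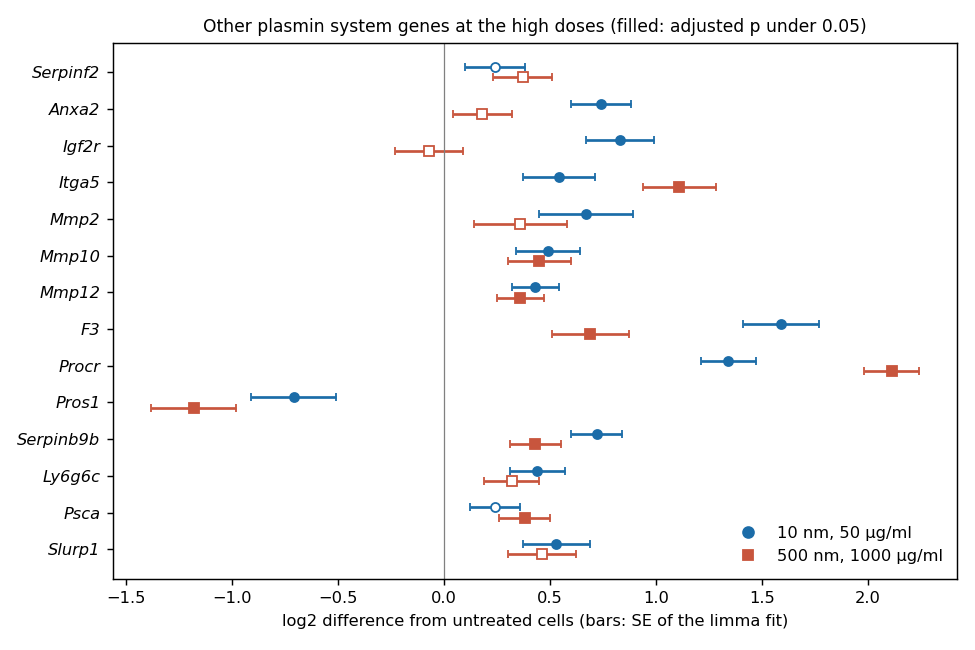
Log2 difference from untreated cells (horizontal axis, bars are the SE of the limma fit) at the high dose of each size for the 14 named genes of the lists, blue circles for 10 nm at 50 µg/ml and red squares for 500 nm at 1000 µg/ml; filled symbols have an adjusted p under 0.05. Procr (1.34 and 2.11) lies to the right at both doses, F3 is the highest at the 10 nm dose (1.59, beside 0.69 at the 500 nm dose), and Pros1 (-0.71 and -1.18) is the only gene to the left at both doses, while the Serpinf2 symbols are open.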

How the data were processed

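Total RNA of RAW 264.7 cells, 7 groups of 3 arrays taken from the sample titles, was copied with an oligo-dT primer, labelled with biotin and hybridised to an Affymetrix mouse array, per the labels' protocols. The authors deposited 1 table of RMA values, per the submitters' processing notes; the RMA version is not given in the sources used here. The deposited values are on a log10 scale: the base was read from their range, 0.641 to 4.34, since base 10 puts the brightest probe set at 22019 intensity units and base 2 at 20.3. They were multiplied by 3.32 to log2, and every fold rests on that reading; RMA also compresses changes of dim probe sets. An array has no read depth, so precision is set by how many arrays there are.

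Of 22690 probe sets, 20393 had 1 symbol, 691 several and 1606 none in GEO's platform annotation; 20364 matched RefSeq GRCm38.p6 by gene ID and 0 symbols changed. After control probe sets were left out, 20380 gave 12393 genes, each by its brightest probe set on average. One limma 3.58.1 fit in R 4.3.3 (group only, 14 residual and 4.80 prior degrees of freedom) gave all comparisons, and the script was tested on simulated data. The members, the lists and the rule for named genes (up to 3 called genes per list by size at the high doses, or the smallest p, and 3 genes most like a member) were chosen with earlier results of these data known. Alternatives were a replicate block, quantile normalization, median centring, leaving out genes under the median level of 6.66, averaging probe sets, array weights, the second Plau probe set and leaving out each array or replicate number. The contrasts of steps between sizes were added after the data were seen. RefSeq promoter windows were matched by symbol for 2 of the 4 members, Plaur and Serpinb2.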

Additional observations from a re-analysis of the deposited data

Results flagged for a closer look

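These results differed between the 2 particle sizes by a test of the difference itself, the limma fit adjusted over all genes. Plau was lower with 10 nm than with 500 nm particles at equal nominal surface area 4 (-0.53) and at the high doses (-1.25, areas 10 and 4). The former was called in 24 of 31 alternative settings and the latter in all 31. Plaur (1.21) and Plat (0.47) were higher with 10 nm particles at the mid doses, which differ in nominal area, 4 against 2. Plaur was called there in 24 of 30 alternative settings and Plat in 17 of 29. The mid-to-high step of Plau differed between the sizes by -1.01, in a contrast added after the data were seen and called in 27 of 31 alternative settings. That step spans areas 4 to 10 for 10 nm and 2 to 4 for 500 nm particles. No explanation was tested for any of them.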

How the results depend on the processing

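The calls of Plau against untreated cells held in all 186 checks (6 doses, 31 alternatives each; largest adjusted p 0.0176), and its high-dose size difference in all 31. No called value changed sign. Array weights brought these differences under the threshold: Plau 10 nm high minus mid dose (-0.69), Plaur 10 nm low dose (0.71) and 500 nm mid dose (0.80) against untreated, Plaur 10 nm mid against 500 nm high (0.70), high against high (0.66), 500 nm high against mid (0.93) and the low-to-mid step between sizes (1.14), and Serpinb2 10 nm mid against 500 nm high (-0.35). Quantile normalization did so for Plaur at the 500 nm mid dose (1.08) and ended the calls of Plat against untreated for 10 nm mid (0.44) and 500 nm high (0.43), between the mid doses of the sizes (0.45) and from the 500 nm mid to the high dose (0.43). Leaving out dim genes, and with them Plat and Serpinb2, called Plau 10 nm high minus mid (-0.72), and the second Plau probe set ended the call of the step between sizes (-1.03). The cause was not tested.

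The main fit did not treat the replicate numbers as pairing the arrays, although arrays with number 2, and those with number 3, tended to deviate alike. Deviations from the group means correlated at -0.24 to 0.759 over 63 pairs with the same number, 51 of them over 0.1. The median was 0.459 for the same number: 0.0671 for number 1, 0.473 for number 2 and 0.578 for number 3. It was -0.258 for different numbers, which is no separate evidence, since the deviations within a group cancel out. Of 21 arrays, 15 correlated best with their own number. With a replicate block Plau 10 nm high minus mid (-0.72, adjusted p = 0.00451) and Plaur 500 nm mid against untreated (1.03, 0.00894) were called as well. The block raised the count of genes called among all genes, and array weights raised it further. Against untreated cells the counts with the block and with weights were 214 and 696 at the 10 nm low dose (95 without either), 2235 and 2778 at the mid dose (1315), 4544 and 4779 at the high dose (2506), and, for 500 nm, 110 and 306 at the low dose (53), 710 and 1362 at the mid dose (343) and 3433 and 3653 at the high dose (1898). Between sizes they were 37 and 87 at the low doses (11), 789 and 1191 at area 4 (353), 577 and 1037 at the mid doses (317) and 2071 and 2309 at the high doses (932). Between doses they were 1103 and 1847 for 10 nm mid minus low (582), 4 and 18 for 10 nm high minus mid (0, or 1 without dim genes), 82 and 152 for 500 nm mid minus low (54) and 534 and 844 for 500 nm high minus mid (251).

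Leaving out 1 array or 1 replicate number moved these counts, in the same order, to 20 to 114, 384 to 1504, 874 to 3034, 7 to 66, 70 to 427, 738 to 2231, 0 to 13, 37 to 456, 44 to 390, 144 to 1181, 97 to 795, 0 to 2, 9 to 65 and 9 to 314. In the same comparisons, the members' differences whose call changed in such fits ranged as follows. Plau ran from -0.60 to -0.48 (10 nm mid minus 500 nm high), -0.76 to -0.67 (10 nm high minus mid), 0.69 to 0.88 (500 nm mid minus low) and -1.10 to -0.92 (step between sizes). Plaur ran from 0.80 to 1.23 (500 nm mid against untreated), 0.84 to 1.58 (mid doses of the sizes) and 1.23 to 2.02 (10 nm mid minus low). Plat ran from 0.45 to 0.54, 0.49 to 0.65 and 0.43 to 0.64 (10 nm mid, 10 nm high and 500 nm high against untreated), 0.35 to 0.55 (mid doses of the sizes), 0.53 to 0.57 (10 nm mid minus low) and 0.36 to 0.60 (500 nm high minus mid). Calls in pairs outside these comparisons changed too, among them, without a replicate number, Plaur (1.14 to 1.91) and Plat (0.52 to 0.66) for 10 nm high minus low, Plaur (1.46 to 1.56) and Plat (0.62 to 0.81) for 500 nm high minus low, and Plau (-0.57 to -0.53) for 500 nm low minus 10 nm mid. Fits without a replicate number hold 2 arrays a group, so a call can be lost there without a smaller difference. Some lost calls did come with a smaller difference than in the main fit, and others with a larger one. For Plaur between the mid doses of the sizes (1.21), the call was lost without replicate 1 (0.84) and without replicate 2 (1.30).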
